A study of Mus musculus with 6 samples.

Results

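The genes described are those of elastic fibres and of the microfibrils on which they form: elastin (Eln), fibrillin-1 (Fbn1), the fibulins Fbln1, Fbln2 and Fbln5, the microfibril-associated glycoproteins Mfap2 and Mfap5, and the latent TGF-beta binding proteins Ltbp1, Ltbp2 and Ltbp3. They were chosen by symbol, and all 10 were found among the 24940 genes of the deposited exon count table. Messenger RNA had been sequenced from wild-type hepatic stellate cells of female C57BL/6JBomTac mice, grown in culture. The forskolin group (3 libraries, A to C) received 5 µM forskolin, an activator of the enzyme that makes cyclic AMP, 2 days after isolation. The drug was in the medium for 3 h, and after a change of medium the cells were kept for another 21 h, so that RNA was taken at 24 h. The vehicle group (3 libraries, A to C) received dimethyl sulfoxide alone and the same change of medium. No source used here says whether libraries of a group came from separate mice or dishes. The p-values therefore set the difference between groups only against the scatter of these libraries, and that scatter may be technical.

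An elastic fibre has a core of crosslinked elastin laid down on a scaffold of fibrillin microfibrils. Fibulins bring elastin and its crosslinking enzymes, the lysyl oxidases, together with the microfibril, and the microfibril-associated glycoproteins sit along it. Latent TGF-beta binding proteins hang on the same microfibrils and hold TGF-beta in an inactive complex, from which integrins can release it. In fibrotic liver, elastin and fibrillin build up in the scar, and stellate cells and portal fibroblasts are both known as sources of these proteins.

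Total counts ran from 10890193 to 12954310 per library with forskolin and from 13001358 to 15090262.5 with vehicle. All 20 listed stellate cell markers were among the tested genes, while the summed level of 10 lymphocyte markers was at most 0.592 CPM (exon counts scaled by library size to the usual per-million unit) in any library. Of 13357 genes tested between the groups with edgeR, 49.9% passed an adjusted p of 0.05, 25.1% lower and 24.8% higher with forskolin, and 57.3% had CPM that did not overlap between groups. On log2 CPM, libraries of 1 group had pairwise Pearson correlations of 0.992 to 0.996, taken over genes, which are not independent replicates.

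Most of the elastic fibre genes that could be tested were lower a day after forskolin, and 1 was higher. Among the 9 members that passed the filter on low counts, 7 were lower (25.1% of all tested genes were), 1 was higher (Ltbp3; 24.8% of all were) and 1 did not pass the threshold (Eln), with a median log2 fold change of -0.55, which is the value of Eln, beside 0.01 over all tested genes. For Mfap5 and Eln the vehicle libraries were enough to pass that filter, and the forskolin libraries by themselves were not. The differences of both are therefore not independent of being tested, and the count and median describe the tested members only. Mfap2 did not pass the filter. The groups did not overlap for 7 of the 10 members, as for 57.3% of tested genes. The falls were steepest for Mfap5 and Ltbp2 and shallowest for Fbln2, and leaving out any 1 library in turn moved the number of lower members between 6 and 8. A lower value in bulk RNA can come from fewer cells of a type or from less RNA per cell, which cannot be told apart here.

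**Figure D1:**
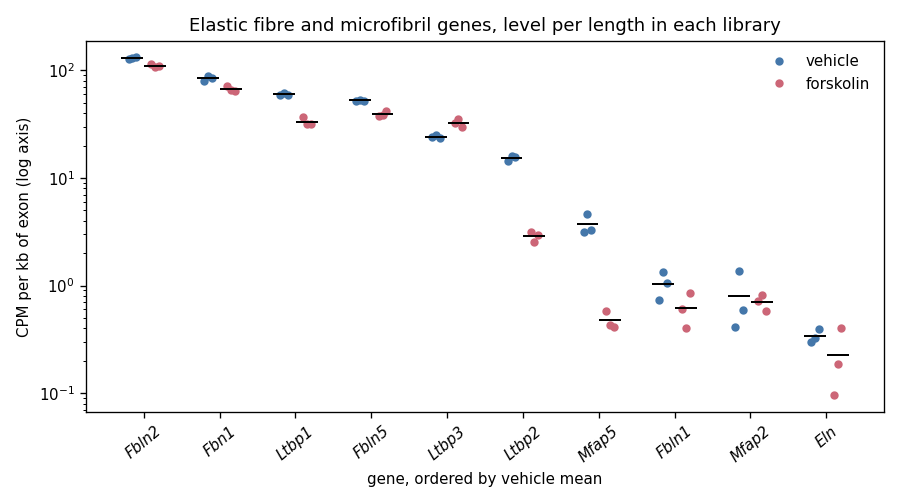
Level of each member in CPM per kb of exon on a log axis, with 1 point per library and a black line at the mean of 3 libraries, vehicle in blue and forskolin in red. Fbln2 leads in both groups at 130.0 and 111 CPM per kb, and the points of Eln, Fbln1 and Mfap2 overlap between groups.

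Between genes, levels were compared per kb of exon. With vehicle the order was Fbln2 (130.0 ± 2.42 CPM per kb, SD, n = 3), Fbn1 (84.6 ± 5.05), Ltbp1 (60.0 ± 1.66), Fbln5 (52.6 ± 0.688), Ltbp3 (24.1 ± 0.839), Ltbp2 (15.4 ± 0.917), Mfap5 (3.7 ± 0.827), Fbln1 (1.04 ± 0.308), Mfap2 (0.794 ± 0.514) and Eln (0.339 ± 0.0478). Of neighbours in this order, the libraries of Fbln1 and Mfap2 overlapped and no other pair did. With forskolin Fbln5 stood above Ltbp1, and Mfap5 dropped below Mfap2 and Fbln1. Here 3 neighbouring pairs overlapped, namely Ltbp1 with Ltbp3, Mfap2 with Fbln1, and Fbln1 with Mfap5. Fbln2 and Fbn1 made up, respectively, 35.0% and 22.7% of the summed CPM per kb of the 10 members with vehicle, and 38.4% and 23.3% with forskolin. The summed level of the 10 members was 360.0 to 384 CPM per kb in the vehicle libraries and 282 to 298 in the forskolin libraries.

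Elastin itself was hardly present in these cells. Eln (mm10 chr5:134702595-134747323, minus strand, 37 exons in the matching GENCODE transcript) received 15.5, 18.5 and 19 counts in the vehicle libraries A to C, against 4, 9.5 and 18.5 in the forskolin libraries A to C. These counts are 1.14, 1.24 and 1.5 CPM with vehicle and 0.364, 0.718 and 1.52 CPM with forskolin. Forskolin C was as high as the highest vehicle library and the other forskolin libraries lay below all vehicle libraries. The log2 fold change was -0.55 (SE 0.399, adjusted p = 0.27). Pooled over libraries, the ratio of vehicle to forskolin was 1.46 with an exact 95% binomial (Clopper-Pearson) interval of 0.926 to 2.35, which covers counting error only. Without forskolin C the log2 fold change was -1.15 (adjusted p = 0.0376), and without forskolin A it was -0.22. With forskolin C left out, the vehicle libraries of Eln were enough to pass the filter and the remaining forskolin libraries were not. The lower p there is therefore not independent of being tested.

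Fbn1, which encodes the main building block of microfibrils, was by contrast among the well-counted genes. Fbn1 (chr2:125300594-125506438, minus strand, 66 exons) stood at 777, 874 and 843 CPM in vehicle A, B and C and at 702, 651 and 630 CPM in forskolin A, B and C. Every forskolin library was below every vehicle library. Fbn1 fell by 0.33 on the log2 scale (SE 0.0503, adjusted p = 2.52e-05), a drop of the mean by 20.5%. Its separate count is uncertain, as 80.3% of its stretches of 50 bases were found in no other gene on either strand. Of its exon bases, 2442 lie opposite exons of Gm9913, which is not a row of the table. This overlap itself lowers that share and is not a separate reason. The related fibrillin gene Fbn2 averaged 0.486 ± 0.247 CPM in vehicle and 0.175 ± 0.212 CPM in forskolin libraries and was not tested.

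All 3 fibulin genes were lower with forskolin, at very different levels. Fbln2, a fibulin of blood vessel walls and of injured tissue, was at 568, 585 and 588 CPM in vehicle A, B and C and at 511, 483 and 485 CPM in forskolin A, B and C (chr6:91212764-91272540, 18 exons). The groups did not overlap, and Fbln2 fell by 0.24 on the log2 scale (SE 0.0408, adjusted p = 9.76e-05), the smallest change of the members called.

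Fbln5, which binds both elastin and integrins and is needed for elastic fibre assembly, had 307, 314 and 307 CPM in the vehicle libraries and 220, 228 and 249 CPM in forskolin A, B and C (chr12:101746565-101819119, 11 exons). All forskolin libraries lay below the vehicle libraries, and Fbln5 fell by 0.41 (SE 0.0459, adjusted p = 6.42e-07). Fbln1, a fibulin that binds fibronectin and elastin, was scarce (chr15:85206008-85286294, 17 exons). Its counts were 33, 67 and 45 in the vehicle libraries A to C and 22, 18 and 35 in the forskolin libraries A to C, or 2.44 to 4.49 CPM and 1.36 to 2.88 CPM. The groups overlapped, since forskolin C exceeded vehicle A. Fbln1 fell by 0.76 (SE 0.288, adjusted p = 0.0358), but this call did not hold without forskolin B (adjusted p = 0.179), vehicle B (0.222) or vehicle C (0.0815), nor in DESeq2 (0.0695) or with library size as a covariate (0.332).

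The microfibril-associated glycoprotein genes were both lowly counted, and only Mfap5 could be tested. Mfap5, which binds fibrillins and carries an integrin-binding site, reached 64, 103.5 and 62 counts in the vehicle libraries A to C (chr6:122513584-122529287, 10 exons). With forskolin it had 9.5, 8.5 and 7.5 counts in libraries A, B and C. In CPM these are 4.72, 6.93 and 4.88 with vehicle against 0.866, 0.642 and 0.616 with forskolin, with no overlap and vehicle B the highest. Mfap5 fell by 2.94 on the log2 scale (SE 0.286, adjusted p = 1.11e-07). The ratio of vehicle to forskolin from pooled counts was 7.81, with a 95% counting interval of 5.2 to 12.2. Without any 1 library its log2 fold change stayed called, with -3.12 as the steepest value, without forskolin A.

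Mfap2, which encodes the first microfibril-associated glycoprotein and is present on most microfibrils, gave 6, 22 and 8 counts in the vehicle libraries A to C and 8.5, 11.5 and 7.5 in the forskolin libraries A to C (chr4:141010637-141015984, 9 exons). The groups overlapped, and vehicle B alone stood apart at 1.47 CPM against 0.443 to 0.869 CPM in the other 5 libraries. Without the filter on low counts its log2 fold change was -0.18 (SE 0.453, adjusted p = 0.8), and the pooled ratio of vehicle to forskolin was 1.14 with a 95% counting interval of 0.674 to 1.93. A change of Mfap2 was therefore not detectable at this depth. The summed level of Mfap2 and Mfap5 was 4.49 ± 1.34 CPM per kb with vehicle and 1.18 ± 0.167 with forskolin. Per kb, Mfap5 was above Mfap2 in each vehicle library and below it in each forskolin library.

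**Figure D2:**
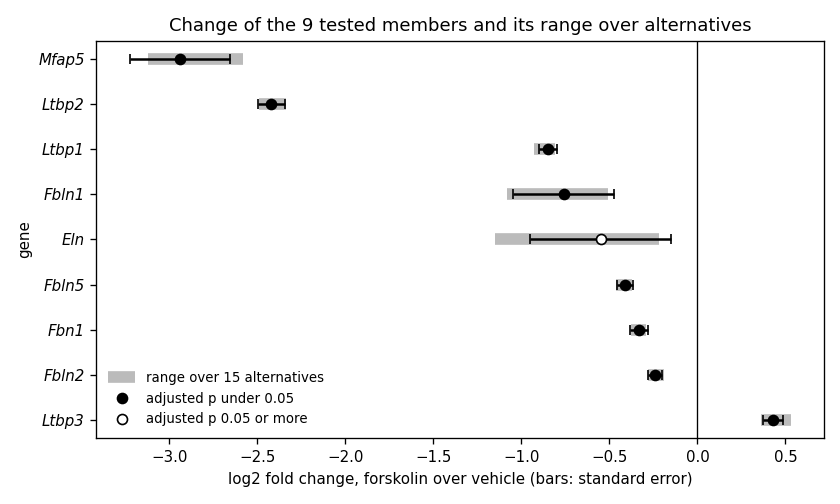
Log2 fold change of forskolin over vehicle for the 9 tested members, with the standard error as bars and the range over 15 alternative settings in grey. Ltbp3 is the member above 0 at 0.43, Mfap5 (-2.94) and Ltbp2 (-2.42) lie farthest below 0, and Eln (open symbol) did not pass the threshold.

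The latent TGF-beta binding proteins moved in opposite directions, Ltbp1 and Ltbp2 falling and Ltbp3 rising. Their upstream sequences are shown because these are the members of 1 family that moved apart. RefSeq promoter entries (build GRCm38.p6) were found for 8 of the 10 members. The 250 bases before the start are printed 5′ to 3′ on the gene's own strand. Capitals mark a match to any of 6 motifs searched on both strands, namely the cyclic AMP response element TGACGTCA, its shorter core TGACG, the AP-1 motif TGANTCA, the TEAD motif GGAATG, the SMAD box CAGACA and the TATA box TATAAA.
Ltbp1, chr17:75005279-75005528, plus strand: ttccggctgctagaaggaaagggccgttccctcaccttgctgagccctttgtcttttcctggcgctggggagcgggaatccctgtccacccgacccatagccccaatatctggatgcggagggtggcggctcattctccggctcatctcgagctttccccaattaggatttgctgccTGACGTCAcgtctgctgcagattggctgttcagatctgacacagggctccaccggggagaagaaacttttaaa
Ltbp2, chr12:84876492-84876741, minus strand: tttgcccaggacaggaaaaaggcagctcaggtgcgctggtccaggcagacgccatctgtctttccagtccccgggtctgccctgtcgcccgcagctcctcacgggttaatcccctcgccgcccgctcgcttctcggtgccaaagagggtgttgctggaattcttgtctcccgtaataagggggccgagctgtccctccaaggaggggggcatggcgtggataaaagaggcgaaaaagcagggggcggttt
Ltbp3, chr19:5740650-5740899, plus strand: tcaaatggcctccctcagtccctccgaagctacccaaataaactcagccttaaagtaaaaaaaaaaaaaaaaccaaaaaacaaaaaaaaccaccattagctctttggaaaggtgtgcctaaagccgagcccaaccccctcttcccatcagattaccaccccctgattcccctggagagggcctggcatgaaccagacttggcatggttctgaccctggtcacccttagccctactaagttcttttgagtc

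The Ltbp1 stretch holds a full cyclic AMP response element that begins 73 bases before the start, and the shorter core lies inside it on both strands. This element is present in 1.55% of the 32851 RefSeq promoter stretches of the same length, and the shorter core in 17.8%. The start is that of the transcript that the table counts for Ltbp1, but counts over exons do not show which start was used. A second RefSeq start of Ltbp1, 173252 bases further on, has no such element and holds the SMAD box at 2 places, a motif found in 17.1% of stretches. None of the 6 motifs was in the Ltbp2 or Ltbp3 stretch. Among the other members with an entry, Fbln5 had the shorter core before both of its listed starts and a SMAD box before the second. Fbln1 had a single SMAD box, which lay before both of its listed starts. Mfap2 had a TEAD motif and a SMAD box before its second start, and Fbn1 and Fbln2 had none of the 6. A match describes the letters only.

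Ltbp1, the most abundant of the 3 and a carrier of latent TGF-beta, was at 437, 459 and 439 CPM in vehicle A, B and C and at 272, 233 and 235 CPM in forskolin A, B and C (chr17:75005529-75392512, 34 exons). The groups were far apart, and Ltbp1 fell by 0.85 on the log2 scale (SE 0.0524, adjusted p = 2.03e-10), its mean being 44.5% lower.

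Ltbp2 is unlike its relatives in that its protein is not known to bind latent TGF-beta, and it binds fibrillin-1 and Fbln5. It stood at 94.0, 105 and 104 CPM in vehicle A, B and C and at 20.7, 16.8 and 19.2 CPM in forskolin A, B and C (chr12:84783212-84876495, minus strand, 35 exons). Each forskolin library was far below each vehicle library, and the mean was 81.3% lower (log2 fold change -2.42, SE 0.0753, adjusted p = 2.07e-14). The antisense gene D030025P21Rik, whose exons lie opposite 764 exon bases of Ltbp2, was also lower, with 12.4 ± 0.991 CPM in vehicle and 2.65 ± 0.239 CPM in forskolin libraries (adjusted p = 1.97e-09). The library kit is not stated to keep strand, so reads in the shared bases cannot be told apart. On either strand, 91.4% of the 50-base stretches of Ltbp2 were found in no other gene, a share that this overlap itself lowers.

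Ltbp3, a carrier of latent TGF-beta with a known part in bone and tooth, was at 124, 129 and 121 CPM in vehicle A, B and C and at 168, 183 and 153 CPM in forskolin A, B and C (chr19:5740904-5758532, 28 exons). All forskolin libraries were above all vehicle libraries, forskolin B being the highest, and Ltbp3 rose 1.35-fold (log2 fold change 0.43, SE 0.0562, adjusted p = 4.38e-06). The fourth gene of the family, Ltbp4, which is no member of the 10 and whose protein supports elastic fibre assembly, rose as well. It went from 35.2, 36.5 and 37.0 CPM in vehicle A, B and C to 84.2, 86.0 and 67.6 CPM in forskolin A, B and C (log2 fold change 1.13, SE 0.0793, adjusted p = 1.24e-09).

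The make-up of the family differed between the groups. Summed over Ltbp1, Ltbp2 and Ltbp3, the level was 99.5 ± 3.07 CPM per kb with vehicle and 68.7 ± 4.1 with forskolin, and with Ltbp4 added it was 107 ± 3.16 and 84.3 ± 5.96. The share of Ltbp3 among the 3 members was 24.6%, 24.3% and 23.8% in vehicle A, B and C and 44.9%, 51.0% and 46.2% in forskolin A, B and C. That of Ltbp2 went from 15.4% ± 0.657 to 4.2% ± 0.454, and that of Ltbp1 from 60.3% ± 0.272 to 48.4% ± 2.79. None of these 3 shares overlapped between groups, and no test was made, as 3 libraries against 3 cannot reach an exact permutation p below 0.1. Among the fibulins, Fbln2 made up 70.8% ± 0.379 of the 3 fibulins with vehicle and 73.4% ± 1.75 with forskolin, and Fbln5 28.6% ± 0.401 and 26.2% ± 1.66.

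**Figure D3:**
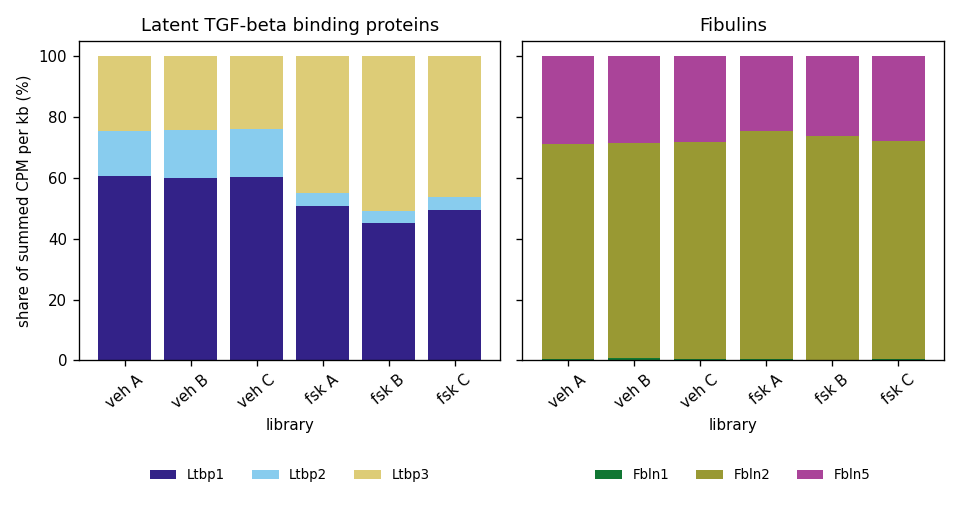
Share of each gene in the summed CPM per kb of its family (%), as stacked bars with 1 bar per library, latent TGF-beta binding proteins on the left and fibulins on the right. Ltbp3 takes 23.8% to 24.6% in the vehicle libraries and 44.9% to 51.0% in the forskolin libraries, while Fbln2 takes 70.6% to 71.3% and 71.6% to 75.1% of the fibulin bars.

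Other genes that build or bind the fibre were described by lists, whose counts stand beside the background of 25.1% lower and 24.8% higher. Of 10 tested genes among the other fibulins, fibrillins, emilins and related genes, 5 were lower and 2 higher, with a median log2 fold change of -0.28. The emilin gene Emilin1, whose protein lies between elastin and microfibrils, fell from 569 ± 19.5 to 449 ± 26.6 CPM (adjusted p = 7.36e-06), and Hmcn1, a long relative of the fibulins, fell from 105 to 73.8 CPM (adjusted p = 1.25e-06). Efemp2, which encodes fibulin-4 and is needed for elastin crosslinking, was at 193 ± 0.809 and 194 ± 11.4 CPM (log2 fold change 0.01, SE 0.0457, adjusted p = 0.882). Per kb of exon and with vehicle, Emilin1 was at 165 CPM and so above Fbln2, the highest member, and Efemp2 at 108 CPM lay between Fbln2 and Fbn1.

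Of the 5 lysyl oxidase genes, which encode the enzymes that crosslink elastin and collagen, 3 were lower and 0 higher. Lox fell from 558 ± 21.2 to 262 ± 15.3 CPM (log2 fold change -1.09, SE 0.0475, adjusted p = 1.53e-12), Loxl4 from 350.0 to 172 CPM and Loxl3 from 97.5 to 70.2 CPM. Loxl1, the family member tied most closely to elastin, was at 54.2 ± 2.41 and 57.5 ± 7.02 CPM (adjusted p = 0.363). Among 9 tested ADAMTS and ADAMTSL genes that act on microfibrils, 4 were higher and 1 lower. Adamtsl2, whose protein binds fibrillin-1 and Ltbp1, rose from 4.08 ± 0.631 to 29.8 ± 6.19 CPM (log2 fold change 2.86, SE 0.16, adjusted p = 5.52e-11), Adamtsl3 rose from 1.95 to 8.07 CPM, and the protease gene Adamts6 fell from 29.3 to 20.4 CPM. Of 9 tested genes for elastin-cutting proteases and their inhibitors, 4 were lower, among them Mmp14 and Timp2, and 2 were higher, Mmp2 among them.

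The 3 TGF-beta ligand genes, whose products the latent TGF-beta binding proteins hold, all fell. Tgfb1 went from 206 ± 2.41 to 155 ± 8.03 CPM, Tgfb2 from 71.7 ± 1.35 to 50.7 ± 5.97 CPM and Tgfb3 from 239 to 123 CPM (adjusted p = 5.7e-07, 1.23e-05 and 1.33e-10). In their list of 9 tested ligands of the wider family 6 were lower and 3 higher, Bmp10 falling from 270.0 to 155 CPM. Of 20 tested integrin, elastin receptor and TGF-beta receptor genes 8 were lower and 3 higher, led by the integrin genes Itga4 (134 to 24.4 CPM) and Itga8 (16.5 to 5.76 CPM), and by Thbs1, an activator of latent TGF-beta (2300 to 1470 CPM). Among 19 genes known to be induced by TGF-beta, 11 were lower and 4 higher, with a median of -0.18. Postn, Smad7 and Ccn2 were lower, Ccn2 going from 1010 to 741 CPM, and the repressor gene Bhlhe40 was higher. Ccn2 has 82.8%, Tgfb3 91.2%, Loxl3 91.5% and Itga4 92.5% of its 50-base stretches in no other gene.

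**Figure D4:**
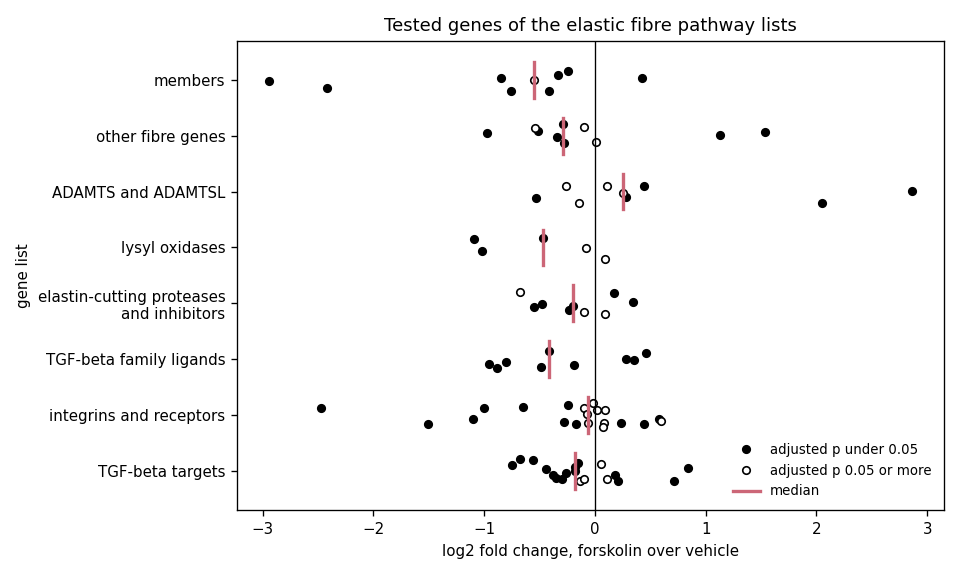
Log2 fold change of forskolin over vehicle for each tested gene of the members and of 7 pathway lists, filled where the adjusted p was under 0.05, with the list median as a red line. The median was -0.55 for the members, -0.47 for the lysyl oxidases and 0.25 for the ADAMTS and ADAMTSL genes.

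Elastin and fibulins are also made by portal fibroblasts and smooth muscle, so markers of other liver cells were measured beside them. Of 20 portal fibroblast and mesothelial markers, 19 were in the table and 7 were tested, of which 2 were higher (Thy1 and Cd34) and 2 lower, Lrrn4 among them. Thy1 passed the filter through its forskolin libraries and Lrrn4 through its vehicle libraries, so these differences too are not independent of being tested. The summed level of that list was 34.9 to 40.3 CPM in the vehicle libraries and 41.7 to 47.1 CPM in the forskolin libraries. The largest part of the vehicle sum was Gas6, the other lower gene, which fell from 22.1 to 12.2 CPM (adjusted p = 2.57e-06). Cd34 rose from 3.86 to 19.6 CPM and Thy1 from 0.65 to 4.95 CPM. Pi16, Dpt, Clec3b, Gli1, Msln and Mgp were at most at 0.822 CPM in any library, and Gpm6a was at 0 counts in all 6. Of 12 tested vascular smooth muscle markers 11 were lower and 1 higher, Kcnab1, Des and Cnn1 leading. Casq2, among the lower, passed the filter through its vehicle libraries, and Myocd and Pln were at most at 0.0911 CPM in any library. The summed level of that list was 1580 to 1690 CPM with vehicle and 1230 to 1450 CPM with forskolin. Des stands in both that list and the stellate list, in which 13 of 20 genes were higher, Gdf2, Hgf and Abcc9 leading, and 5 lower (summed level 4640 to 4890 and 5370 to 5540 CPM). Of 9 tested sinusoidal endothelial markers 5 were lower, Flt4, Flt1 and Kdr leading, and 1 higher, with Emcn at 0. The summed level of that list was 259 to 269 CPM with vehicle and 126 to 132 CPM with forskolin. Most of that sum was Flt4 (195 to 79.7 CPM) and Flt1 (27.9 to 8.54 CPM). Pecam1, Cdh5, Clec4g and Erg were at most at 0.603 CPM in any library. Kdr passed the filter through its vehicle libraries and Stab2, the higher gene, through its forskolin libraries. Of 4 tested macrophage markers 2 were higher and 1 lower (46.6 to 47.6 and 50.9 to 56.2 CPM), with Marco at 0. Nearly all of that sum came from the 4 tested genes, and Adgre1, Clec4f, Vsig4, C1qa and Ptprc were at most at 0.315 CPM in any library. Of 3 tested hepatocyte markers 2 were higher and 0 lower (304 to 317 and 361 to 443 CPM), with Cyp3a11, Fga, Fgb and Serpina1c at 0. Nearly all of that sum was Ass1 and Trf, of whose 50-base stretches 61.4% and 40.6% were in no other gene, and Alb, Apoa1, Ttr and Cyp2e1 were at most at 0.168 CPM in any library. Of 5 tested cholangiocyte markers 3 were higher and 2 lower (500.0 to 531 and 805 to 887 CPM). Tm4sf4, among the lower, passed the filter through its vehicle libraries. No lymphocyte marker was tested, and Cd8a, Klrb1c, Ncr1 and Nkg7 were at 0. The part of any of these cells in the changes of the members was not tested.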

How the data were processed

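The authors deposited 1 table of unnormalized estimated (expected) counts over exons for 24940 genes, 1 RefSeq transcript per symbol. These estimated counts were made by the authors with STAR and HOMER on mm10, per the submitters' processing notes, as far as these were used here (tools and build only). Values are multiples of 0.5 (31.8% not whole) and were rounded to whole numbers for the tests. Low genes were dropped by filterByExpr of edgeR 4.0.16 under R 4.3.3, at a minimum count of 10 and a total of 15. Libraries were scaled by TMM, and group was the sole term of the quasi-likelihood test. Its p-values are two-sided, adjusted by Benjamini-Hochberg over 13357 genes, with a threshold of 0.05. CPM use TMM-scaled library sizes, and standard errors come from the F statistic. Depth was 10890193 to 15090262.5 counts per library, which sets the precision of scarce genes.

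Alternatives were other scalings, DESeq2 1.42.0, no filter, rounding down, a replicate block, library size as a covariate, a test against a 1.5-fold change, and leaving out each library. All 10 members are named; from the other lists, genes named with a change were limited to the 3 tested genes with the smallest adjusted p in each and 11 preset genes. Gas6, markers at or near 0, markers that passed the filter through a single group, and genes overlapping a member were named besides, after their values were seen. Members, lists and motifs were chosen with earlier results of these data known, so they support nothing independently. The table holds Ccn2 under its older symbol. Exons, overlaps and 50-base stretches come from GENCODE M21 (GRCm38), matched by RefSeq accession. Protein features were not computed, and some listed genes are not reported here. Replicate letters were not taken as pairs.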

Additional observations from a re-analysis of the deposited data

How the results depend on the processing

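Limits: the scarce members (Eln, Fbln1, Mfap2 and Mfap5) are bounded by depth, and vehicle libraries were the deeper ones. Ltbp1, Ltbp2 and Mfap5 kept direction and call under all 15 alternatives. Fbn1, Fbln2, Fbln5 and Ltbp3 did so except against a 1.5-fold change, where each had an adjusted p of 1. Under that test 3 members were lower and 0 higher, and of all genes 578 were lower and 422 higher. With library size as a covariate 1998 genes were higher and 2299 lower, in place of 3319 and 3349, and 6 members were lower. Every vehicle library was deeper than every forskolin library, so depth and treatment cannot be fully told apart in that fit. Fbln1 lost its call under 6 alternatives, with an adjusted p of 0.839 against a 1.5-fold change. Without 1 library, 2773 to 3369 genes were higher, 2858 to 3431 lower, and 6 to 8 members lower. Shares of Ltbp1, Ltbp2 and Ltbp3 in their family differed between groups by -11.9, -11.2 and 23.1 percentage points, and by -9.47, -10.7 and 20.2 without division by length. With the replicate letter as a block (replicate block) 7 members were lower and 1 higher, and 3303 genes were higher and 3372 lower. Same-letter libraries deviated from their group means with correlations of 0.06, 0.08 and 0.02 across 11059 genes. Forskolin A and B correlated best with the vehicle library of their own letter, and forskolin C with vehicle B (0.03, beside 0.02 with vehicle C). Values this small cannot decide whether the letters mark pairs. The letters were not taken as pairs because no source used here says that they are.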
